A study of Mus musculus with 24 samples.

Results

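The comparison described here is that of 3T3-L1 cells treated with ML-792 and of cells treated with its solvent, DMSO, at day 1 after adipogenic induction. It holds 6 of the 24 libraries of the series, chosen by their labels alone: 3 of DMSO day 1 and 3 of ML-792 day 1, with replicates A, B and C in each group. 3T3-L1 is an established mouse preadipocyte line that accumulates fat after hormonal induction. All 6 cultures were in differentiation medium, which holds dexamethasone, 3-isobutyl-1-methylxanthine (IBMX), insulin and fetal bovine serum, and all 6 received 100 μM 4-thiouridine for 45 min before lysis. The ML-792 cultures received 0.5 μM of the inhibitor. When ML-792 was added to the cultures of these libraries is not given in the sources used here, so the length of the exposure at day 1 cannot be stated. In the study's viability assay the treatment began at day -2. The series as a whole holds the same pair of treatments at days -2, 1, 3 and 7, and each library gave 2 readouts from the same sequencing. Total reads of the 3′ ends of messenger RNA give the amount of each transcript. Labelled reads, those with at least 1 T to C conversion, are taken to mark RNA made while 4-thiouridine was present. Reads with such a mismatch from a sequencing error or a variant can count as well. No library of the series lacks the label, so this background cannot be measured. Labelled reads are a part of the total reads, so that the tests of both readouts are not independent of each other.

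SUMO is a small protein that is joined to lysines of other proteins by an E1 activating enzyme (SAE1 with UBA2), an E2 enzyme and E3 ligases, and that is removed again by SENP proteases. Many of its targets are transcription factors and chromatin proteins, and sumoylation of a transcription factor often goes with repression. ML-792 blocks the E1 enzyme and so the conjugation of all SUMO forms. Induction of 3T3-L1 cells acts through the glucocorticoid receptor (dexamethasone), through cAMP (IBMX) and through the insulin receptor. In the first days C/EBPβ and C/EBPδ rise, the cells pass through a last round of division, and later PPARγ and C/EBPα turn on the genes of fat storage.

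The 3 DMSO libraries held 18788063 to 20949260 total reads and the 3 ML-792 libraries 13554718 to 19148277. The labelled reads were 235369 to 285203 and 136029 to 209342. Levels below are normalized reads, that is reads scaled to a common effective library size of 18300600 reads, and fold changes are log2 values of ML-792 over DMSO from the edgeR fit, each with its standard error (SE). A gene is called higher or lower at a Benjamini-Hochberg adjusted p under 0.1. Fibroblast transcripts were abundant in both groups, with Col1a2 at 119880 ± 773 and 134000 ± 29614 normalized reads (SD, n = 3 in each group), and Adipoq, an adipocyte hormone, stood at 314 ± 63.2 and 437 ± 108. Ptprc and Tyrobp, defining genes of immune cells, and Cdh1 and Epcam, of epithelium, had no read in any of the 6 libraries. Of the macrophage list, 6 of 10 genes were tested and Cd14 alone was called, at 142 ± 19.3 against 301 ± 90.8 normalized reads, a call that was lost without ML-792 replicate A, DMSO replicate C or ML-792 replicate C. The summed level of that list was 176.5 to 210.6 in DMSO and 264 to 467.1 in ML-792. That of the 8 epithelial markers, of which 5 were at 0 in all 6 libraries, was 11.84 to 18.97 and 25.59 to 47.07, with Krt19 at 8.28, 10.9 and 15.7 against 39.6, 19.8 and 29.8 normalized reads and neither of the 2 members tested called. The part of these markers in the results was not tested. In cell populations such as these, more cells with a transcript and more transcript per cell cannot be told apart.

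At day 1, 500 of 13263 genes tested were higher in ML-792 (3.77% of those tested) and 577 were lower (4.35%). Among the genes called, the rises were larger than the falls, with a median log2 fold change of 1.33 among the genes called higher and of -0.88 among those called lower, while the median of all genes tested was -0.02. The genes called higher had a median DMSO level of 139.2 normalized reads, against 580.7 for those called lower. Genes with few reads need a larger change to be called, so these 2 medians are not of like genes. A change of more than 2 on the log2 scale was reached by 127 genes upward (0.958% of those tested) and by 50 downward (0.377%). Of the genes called, 161 of the 500 and 349 of the 577 moved by less than 1 on that scale. The 3 libraries of each group did not overlap for 491 of the 500 genes and for 565 of the 577, where 9.73% and 11.6% of all genes tested had groups that did not overlap in these directions. With the replicate letter as a block in the fit, 917 genes were called higher and 1228 lower, and these held 499 of the 500 and all 577. Leaving out any 1 library gave 377 to 452 genes higher and 355 to 481 lower, the lowest of the latter without ML-792 replicate A and 362 and 383 without DMSO replicate B and ML-792 replicate B.

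**Figure D1:**
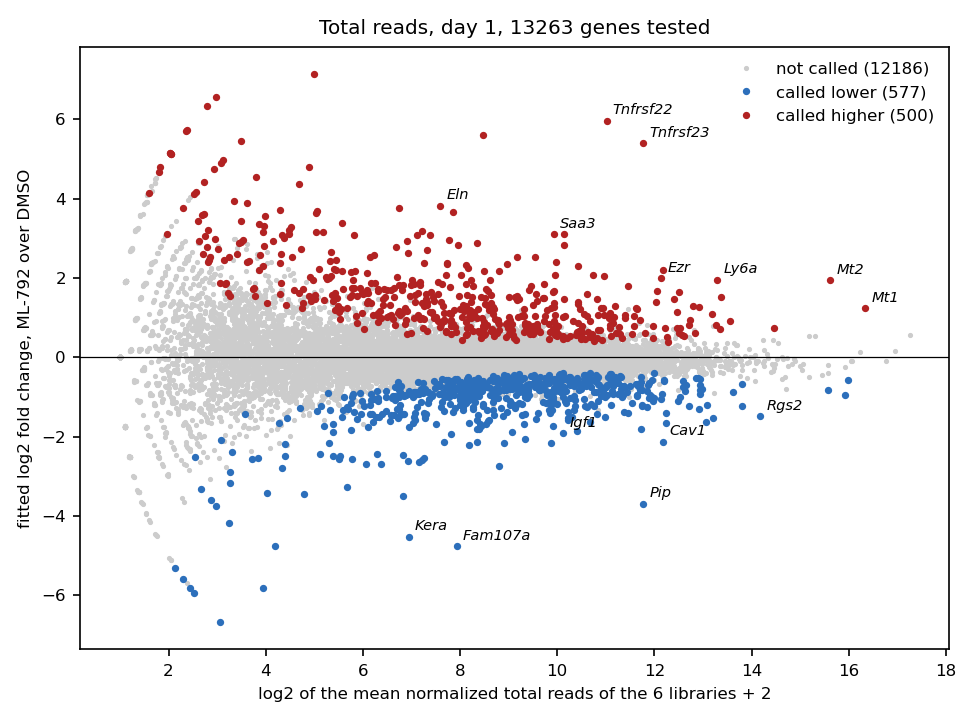
Each point is 1 of the 13263 genes tested, with the log2 of its mean normalized total reads over the 6 libraries plus 2 on the horizontal axis and its fitted log2 fold change, ML-792 over DMSO, on the vertical axis; colours mark the 500 genes called higher and the 577 called lower. Tnfrsf22 and Tnfrsf23 stand at the top right, and Fam107a, Kera and Pip at the bottom. Folds of genes with few reads are little shrunk by the small prior count of the fit.

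Tnfrsf22 and Tnfrsf23, neighbouring genes for decoy receptors of the TNF superfamily ligand TRAIL that lack a death domain, gave 2 of the 3 largest rises among genes with a mean of at least 100 normalized reads in one group. The other was the predicted gene Gm6093, singled out after its values were seen, with a mean of 13.9 in DMSO and 692 in ML-792. Tnfrsf22 (chr7:143634808-143638436, a 3′UTR entry of the mm10 build) stood at 76.3, 43.7 and 74.2 normalized reads in DMSO replicates A, B and C and at 4400, 2421 and 5389 in ML-792. Tnfrsf23 (chr7:143665807-143668592) stood at 188, 123 and 169 and at 7501, 4219 and 8681. Replicate B was the lowest of both groups in both genes, and the groups were far apart. The log2 fold changes were 5.97 (SE 0.443, adjusted p = 1.4e-08) and 5.41 (SE 0.35, adjusted p = 1.1e-09). These are similar genes of 1 family, so reads of one may have been counted for the other. Tnfrsf26, a further gene of the same cluster, held 5.52, 0 and 0 normalized reads in DMSO and 67.4, 37.2 and 55.0 in ML-792 (adjusted p = 0.0094), and Cars, a cysteinyl-tRNA synthetase gene at the other end of the run, rose by 1.02 (SE 0.205, adjusted p = 0.0025). These 4 genes were the longest run of tested genes called in the same direction with gaps of at most 100000 bases, between chr7:143557705-143668592.

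Called genes often lay near others called the same way. Of the 500 genes called higher, 71 (14.2%) had another gene called higher within 100000 bases that did not overlap it, against 3.64% of the remaining genes tested. Of the 577 called lower the same held for 82 (14.2%), against 4.6%. Among the runs of 3 upward were Psmb9, Tap1 and Psmb8, which make and transport peptides for MHC class I, the epithelial keratin genes Krt36, Krt13 and Krt15 (by 1.07, 1.19 and 1.64, with groups that overlapped for Krt13, beside the higher epithelial marker sum in ML-792), and the corepressor genes Aes, Tle2 and Tle6. Among those of 3 downward were Chst12, Lfng and Ttyh3, and Cep41, Mest and Copg2.

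The other genes with large rises differ in what they encode. Eln, which encodes elastin, went from 24.8, 27.3 and 23.1 normalized reads to 381, 255 and 434, a log2 fold change of 3.83 (SE 0.385, adjusted p = 4.4e-07). Cpm, a membrane carboxypeptidase, went from 219, 249 and 228 to 1933, 1918 and 2163, a change of 3.11 (SE 0.142, adjusted p = 1.2e-12). Saa3, an acute-phase apolipoprotein, went from 224, 177 and 208 to 1950, 1234 and 2062 (log2 fold change 3.11, SE 0.321, adjusted p = 7.1e-07). In all 3 genes the lowest ML-792 library lay far above the highest DMSO library, where the naming rule required groups that do not overlap. G0s2, an inhibitor of the fat lipase ATGL, went from 56.1, 63.8 and 29.7 to 368, 390 and 395, a change of 2.95 (SE 0.295, adjusted p = 4.2e-07). Alpl, the tissue-nonspecific alkaline phosphatase, rose by 3.18, the phospholipase gene Pla1a by 3.77, the secretoglobin Scgb1c1 by 3.67, the fractalkine receptor Cx3cr1 by 3.10, the glycoprotein Lrg1 by 3.08 and the serpin Serpinb9b by 2.94, all with adjusted p of 0.0015 or less. Lrg1 had the widest spread of these, at 139.6 to 416 normalized reads in ML-792.

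The falls were led by genes of varied function. Fam107a, a glucocorticoid-induced actin-associated gene, went from 408, 507 and 484 normalized reads to 6.42, 22.1 and 22.4 (log2 fold change -4.77, SE 0.351, adjusted p = 5.0e-09). Kera, the matrix proteoglycan keratocan, went from 212, 238 and 247 to 1.07, 12.8 and 15.9 (-4.52, SE 0.722, adjusted p = 0.00046). Pip, a secreted protein of prolactin-responsive glands, was the most abundant of the group, from 5601, 7920 and 5870 to 508, 577 and 417 (-3.69, SE 0.288, adjusted p = 1.2e-08). In each of these genes the highest ML-792 library lay far below the lowest DMSO library, with groups that do not overlap again required by the naming rule. Ramp2, a receptor activity-modifying protein of the adrenomedullin receptor, fell by 3.49, and Cth, which makes cysteine by transsulfuration, by 2.64 (from 246, 330 and 152 to 35.3, 40.7 and 40.1). Disp2 fell by 2.69, the angiotensin receptor gene Agtr2 by 2.62, Emc4 of the membrane protein insertion complex by 2.60 and the kinase gene Wnk4 by 2.46. Ear2 fell by 2.75, Ang4 by 2.68 and Ang5 by 2.54, all ribonuclease A family genes with near-identical copies, so their reads may be split between family members. All of these falls had an adjusted p of at most 0.013.

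**Figure D2:**
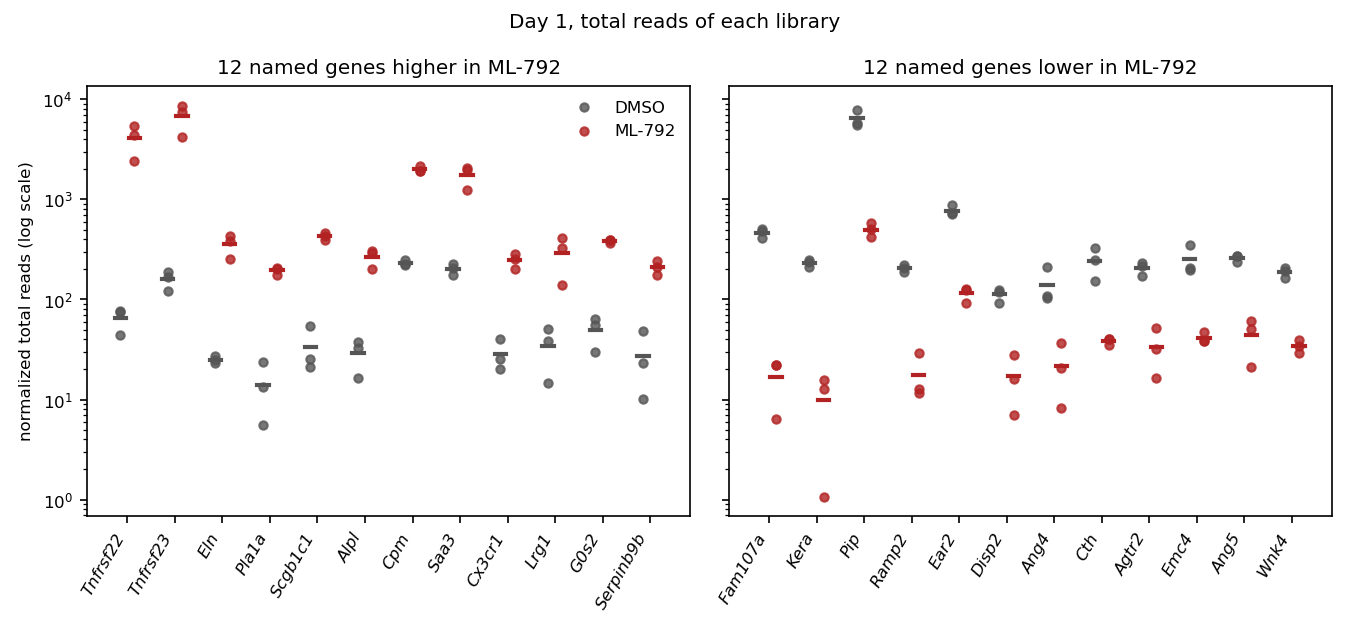
Normalized total reads (log axis) of each of the 3 DMSO and 3 ML-792 libraries of day 1 for the 12 genes named as higher and the 12 named as lower. In every gene the 3 points of one group lie above the 3 of the other, because the rule that named these genes required it.

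Among the most abundant genes called, Mt1 and Mt2 rose. They encode metallothioneins, small cysteine-rich proteins that bind zinc and copper and whose genes are induced by metals through MTF1 and by glucocorticoids. Mt1 stood at 51523, 38034 and 57522 normalized reads in DMSO and at 123740, 92744 and 133300 in ML-792, a log2 fold change of 1.25 (SE 0.218, adjusted p = 0.00063). Mt2 stood at 20073, 19598 and 22408 and at 84602, 64128 and 91623, a change of 1.95 (SE 0.163, adjusted p = 3.8e-08). In both genes replicate B was the lowest of its group and the groups did not overlap. Of the 6 genes tested in the list of metallothioneins and zinc response, the third called was the zinc importer Slc39a14, which fell by 0.55 (SE 0.164, adjusted p = 0.052), a call lost in some fit with 1 library left out. The median of the list was 0.53 beside -0.02 for all genes tested.

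The bases before the RefSeq starts of Mt2 and Mt1 are shown because both neighbouring genes rose and are known to respond to metals, with the core of the metal response element (TGCGCNC or TGCACNC, either strand) in capitals. They are taken from the plus strand of GRCm38.p6, at chr8:94172368-94172617 and chr8:94178839-94179088, each with 250 bases up to the start, 5′ to 3′.
Mt2: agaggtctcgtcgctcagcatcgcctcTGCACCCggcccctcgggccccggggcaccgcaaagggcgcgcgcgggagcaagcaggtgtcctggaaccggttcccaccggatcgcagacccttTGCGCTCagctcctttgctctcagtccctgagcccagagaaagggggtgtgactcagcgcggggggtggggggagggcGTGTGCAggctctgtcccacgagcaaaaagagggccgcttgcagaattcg
Mt1: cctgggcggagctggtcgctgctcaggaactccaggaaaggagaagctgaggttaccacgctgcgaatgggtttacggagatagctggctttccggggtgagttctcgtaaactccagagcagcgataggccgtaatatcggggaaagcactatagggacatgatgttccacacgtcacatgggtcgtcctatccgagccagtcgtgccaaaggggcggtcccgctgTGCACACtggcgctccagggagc
The core was found 3 times before Mt2 and 1 time before Mt1. These counts hold only the bases shown, so any match after the annotated starts is not in them. RefSeq promoters of 250 bases before to 50 after the start were matched by symbol for 9914 of the 13263 genes tested, which gave 12692 promoters. The core was held by 34.8% of all of them, by 30.4% of those of genes called higher and by 36.9% of those of genes called lower.

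The same was done for Saa3 and Tnfrsf23, which were picked by no set rule from the genes with large rises. Eln, Pla1a, Scgb1c1 and Alpl rose more than Saa3 and are not shown. The pair therefore does not tell how often genes with large rises hold the motif. The C/EBP motif TTGCNNAA, searched on both strands, was held by 8.62% of promoters of tested genes, by 13.9% of those of genes called higher and by 8.17% of those called lower. Its match is in capitals in the 150 bases before each start, taken 5′ to 3′ on the minus strand of GRCm38.p6, at chr7:46715677-46715826 for Saa3 and chr7:143685876-143686025 for Tnfrsf23.
Saa3: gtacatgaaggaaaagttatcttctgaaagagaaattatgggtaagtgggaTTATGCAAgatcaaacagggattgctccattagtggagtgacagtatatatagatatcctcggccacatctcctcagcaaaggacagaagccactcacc
Tnfrsf23: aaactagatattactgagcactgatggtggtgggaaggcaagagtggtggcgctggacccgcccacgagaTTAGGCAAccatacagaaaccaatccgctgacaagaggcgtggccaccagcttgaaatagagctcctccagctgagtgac
Each holds 1 match. Of the other motifs searched, the AP-1 motif TGANTCA was held by 5.46% of all, 9.18% of higher and 5.68% of lower promoters, the cAMP response element TGACGTCA by 3%, 1.43% and 1.95%, and the ETS motif CCGGAAG by 16.7%, 6.73% and 7.28%. A match is a run of letters and not a bound site, and these shares carry no test.

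Of the SUMO pathway itself, 29 genes were tested, 2 were called higher and 1 lower, and the median log2 fold change was 0.07. The counts of this and the other lists stand beside 3.77% higher and 4.35% lower of all genes tested. Those of the SUMO list are too small to be set apart from these shares. Sumo3, which encodes one of the SUMO proteins, stood at 6645, 4738 and 6489 normalized reads in DMSO and at 16003, 8763 and 13651 in ML-792, a change of 1.10 (SE 0.278, adjusted p = 0.018). Sp100, a component of PML nuclear bodies that binds SUMO, went from 0.92, 7.29 and 9.90 to 73.8, 32.6 and 61.5 (3.17, SE 0.569, adjusted p = 0.00085). Both genes were higher in all ML-792 libraries than in any DMSO library. The genes of the enzyme that ML-792 blocks were not called: Sae1 stood at 3491, 2842 and 2676 against 4370, 3230 and 3143, and Uba2 at 1085, 1669 and 1197 against 1126, 1209 and 1315.

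Of 24 corepressor genes linked to SUMO, 2 were called higher and 1 lower, counts also too small to be set apart from the shares of all genes tested. Atf7ip, the partner of the histone methyltransferase SETDB1, stood at 693, 905 and 728 normalized reads in DMSO and at 2253, 2332 and 2468 in ML-792 (log2 fold change 1.60, SE 0.138, adjusted p = 5.3e-08). Setdb1 itself rose by 0.65 (SE 0.215, adjusted p = 0.091) and Hdac4 fell by 0.74 (SE 0.189, adjusted p = 0.019). With 1 library left out in turn, the call of Setdb1 was lost in 5 fits and that of Hdac4 in 2. Of the 11 genes tested in the list of germline and silenced loci, Ddx4 alone was called, at 142 ± 8.71 against 326 ± 109 normalized reads (SD, n = 3 in each group), and it too lost its call in some such fit.

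Among 24 pro-adipogenic transcription factor genes, 3 were called higher and 3 lower, with a median of -0.08. Cebpd, which encodes C/EBPδ, fell from 4513, 5805 and 3897 normalized reads to 2460, 2655 and 2733, a log2 fold change of -0.86 (SE 0.168, adjusted p = 0.0021). Stat5a, a mediator of growth hormone signalling, fell by 0.78 (SE 0.173, adjusted p = 0.006), and Egr2 by 0.73 (SE 0.219, adjusted p = 0.055) with groups that overlapped. Ppargc1a, the coactivator PGC-1α, rose from 90.1, 98.4 and 65.2 to 289, 384 and 241 (1.85, SE 0.259, adjusted p = 4.3e-05). Zbtb16 rose by 0.81 (SE 0.238, adjusted p = 0.049) and Klf15 by 1.55 (SE 0.486, adjusted p = 0.071), from 3.81 ± 1.83 to 11.3 ± 6.39 normalized reads. The calls of Egr2, Zbtb16 and Klf15 were lost in 3 or 4 of the 6 fits with 1 library left out. Cebpb, the other early C/EBP gene, was not called, at 3533, 5429 and 3312 against 3470, 5574 and 3954, and neither was Cebpa, at 1526, 1284 and 1490 against 2006, 990 and 2066.

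Pparg, the master regulator of fat cell identity, stood at 2135, 2397 and 1910 normalized reads in DMSO and at 1285, 790 and 1215 in ML-792. The groups did not overlap, and the log2 fold change of -0.97 (SE 0.461) did not pass the test (adjusted p = 0.33), also with the replicate block (adjusted p = 0.18) and by DESeq2 (adjusted p = 0.21). It passed when only the 6 libraries of day 1 were fitted (adjusted p = 0.037) and when no filter on low counts was applied (adjusted p = 0.00016).

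Of 22 anti-adipogenic factor genes tested, 4 were higher and 2 lower. The zinc finger gene Klf13 rose by 1.40 (SE 0.261, adjusted p = 0.0013), Klf10, an early TGF-β response gene, by 1.30 (SE 0.224, adjusted p = 0.00055), Foxo1, a factor that insulin signalling holds in the cytoplasm, by 1.04 (SE 0.149, adjusted p = 5.5e-05) and Gata3 by 1.54 (SE 0.36, adjusted p = 0.0095). Id3 and Id2, inhibitors of helix-loop-helix factors, fell by 1.01 and 0.93, and Id1, listed with the BMP targets, went from 12365, 22607 and 13374 to 8865, 7712 and 10008 normalized reads (-0.86, SE 0.18, adjusted p = 0.0035). Dlk1, the preadipocyte factor that marks undifferentiated cells, stood at 43595 ± 7072 and 30797 ± 8179 (SD, n = 3 in each group) and was not called (adjusted p = 0.38), but was called lower with the replicate block (-0.53, adjusted p = 0.011).

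Rgs2, a regulator of G protein signalling that is induced by cAMP and early in adipogenesis, was among the 5 most abundant genes called lower. It stood at 31013, 23180 and 27875 normalized reads in DMSO and at 11142, 8641 and 9427 in ML-792, a log2 fold change of -1.49 (SE 0.168, adjusted p = 2.2e-06). Of 21 genes tested in the list of cAMP response, 6 were lower and 1 was higher, and the median was -0.39. The salt-inducible kinase gene Sik1 fell by 1.13, the AP-1 gene Fosl2 by 1.00, the phosphodiesterase gene Pde10a by 0.97, the antiproliferative gene Btg2 by 0.80 and the MAP kinase phosphatase gene Dusp1 by 0.61. Ppargc1a was the 1 called higher. Of these, Pde10a, Btg2 and Dusp1 lost their calls in some fit with 1 library left out.

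Of 26 immediate early genes, 7 were lower and 1 was higher, with a median of -0.29. Egr3 fell from 444, 680 and 560 normalized reads to 180, 143 and 204 (log2 fold change -1.67, SE 0.245, adjusted p = 7.3e-05), and Zfp36l1, which promotes decay of messenger RNA, by 1.04 (SE 0.133, adjusted p = 1.2e-05). Fos was the exception, from 268, 204 and 223 to 430, 597 and 365 (1.00, SE 0.29, adjusted p = 0.046), a call lost without any of 3 single libraries. Genes of the cAMP and immediate early lists overlap, since Btg2, Dusp1 and Fosl2 are in both.

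The glucocorticoid response list moved in both directions, with 7 of 25 genes higher, 6 lower and a median of -0.07. Tsc22d3, which encodes GILZ, rose by 0.72 (SE 0.186, adjusted p = 0.021), Sgk1 by 0.60, Angptl4, an inhibitor of lipoprotein lipase, by 0.39 and Lcn2, an iron-binding acute-phase protein, by 1.66 (SE 0.187, adjusted p = 2.2e-06). Mt1, Mt2 and Zbtb16 were the other 3 that rose. Fam107a, Rgs2, Cebpd and Dusp1 fell, as did Sult1a1, a sulfotransferase (-2.55, SE 0.447, adjusted p = 0.00082), and Snai2 (-0.67, SE 0.176, adjusted p = 0.025). The calls of Tsc22d3, Sgk1, Angptl4, Zbtb16, Snai2 and Dusp1 were lost in some fit with 1 library left out.

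**Figure D3:**
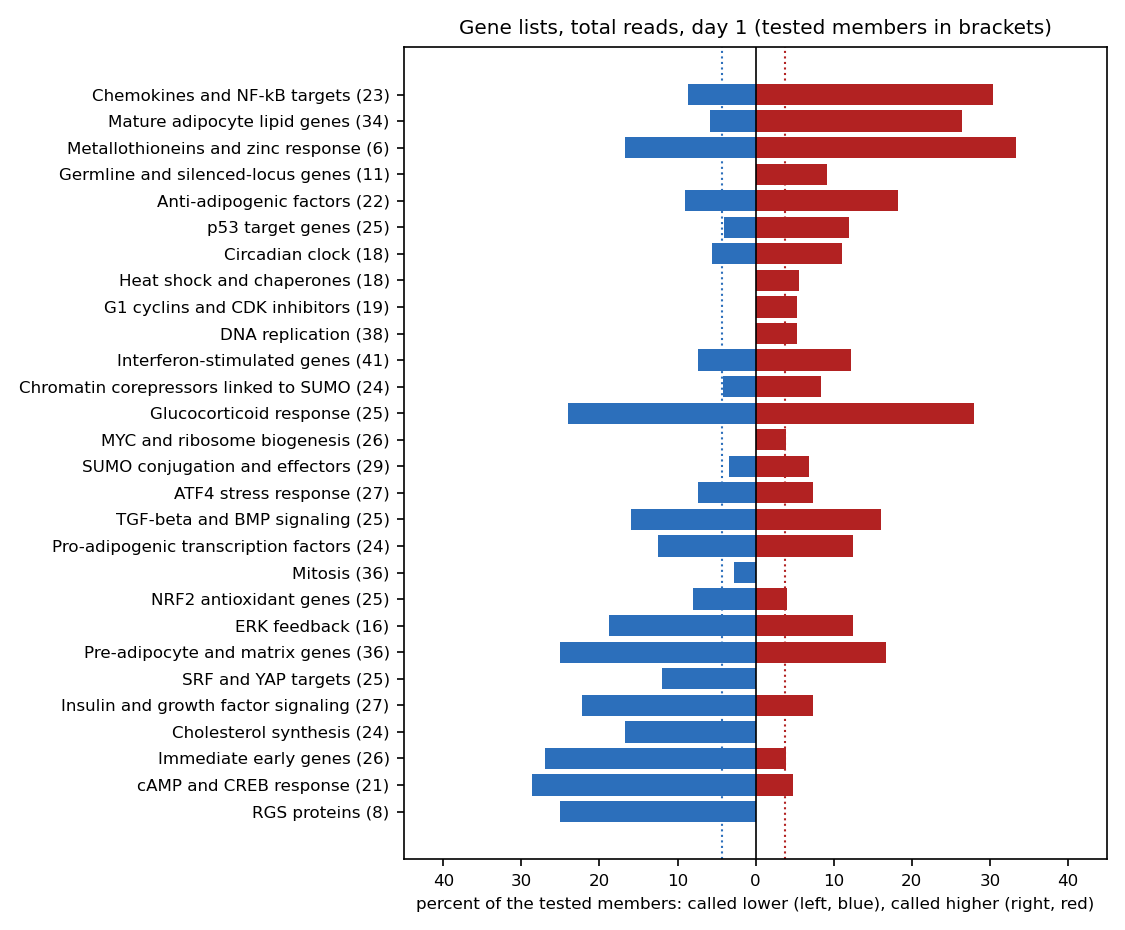
For each gene list, the percent of its tested members (number in brackets) called lower in ML-792, as bars to the left of 0, and called higher, as bars to the right, in total reads at day 1. Dotted lines give the shares among all genes tested, 4.35% lower and 3.77% higher; the metallothionein, chemokine, glucocorticoid and lipid lists reach furthest to the right, and the cAMP, immediate early, matrix, RGS and glucocorticoid lists furthest to the left.

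Several genes of fat storage were higher at day 1. Of 34 genes of the mature adipocyte lipid list, 9 were higher and 2 lower, and the median was 0.41. Scd1, which makes monounsaturated fatty acids, went from 2879, 3420 and 2291 normalized reads to 7221, 9930 and 6893 (log2 fold change 1.49, SE 0.223, adjusted p = 0.0001). Dgat2, which completes triglyceride synthesis, went from 157, 129 and 139 to 462, 405 and 400 (1.57, SE 0.202, adjusted p = 1.3e-05). Plin2, the coat protein of small lipid droplets, went from 1050, 1132 and 1320 to 2747, 2540 and 3081 (1.26, SE 0.158, adjusted p = 9.9e-06). The 3 genes did not overlap between groups. Monoglyceride lipase Mgll rose by 2.44, the fatty acid transporter Cd36 by 1.55, Plin4 by 1.11, Plin1 by 1.07, the fatty acid carrier Fabp4 by 1.06 and the acyl-CoA synthetase Acsl1 by 1.03. In the other direction, Pnpla2, which encodes the lipase ATGL, fell from 3103, 2636 and 3248 to 1657, 1047 and 2002 (-0.93, SE 0.244, adjusted p = 0.023), and Gpam, the first enzyme of glycerolipid synthesis, by 0.55 (SE 0.179, adjusted p = 0.089) with groups that overlapped. The calls of Plin1, Fabp4, Pnpla2 and Gpam were lost in some fit with 1 library left out. Adipoq was not called (adjusted p = 0.33).

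Of 24 genes of cholesterol synthesis, none was called higher and 4 were called lower, among them Srebf2, the transcription factor that drives the pathway, by 0.95 (SE 0.241, adjusted p = 0.019), Pmvk by 0.80 and Stard4 by 0.73. Of these 3, Pmvk alone kept its call with any 1 library left out. Hmgcs1, an early enzyme of the pathway, stood at 1488 ± 142 and 2153 ± 392 normalized reads (SD, n = 3 in each group), and its change of 0.53 was called with the replicate block (adjusted p = 0.0072) and by DESeq2 but not in the fit without the block (adjusted p = 0.14). The median of the list was -0.11.

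The preadipocyte and matrix list was split, with 6 of 36 genes higher and 9 lower and a median of -0.09. Beside Eln, the stem cell antigen Ly6a rose from 4459, 3451 and 4358 normalized reads to 14507, 16459 and 16718 (log2 fold change 1.96, SE 0.168, adjusted p = 5.3e-08). The matrix metalloproteinase gene Mmp3 rose by 1.82, Thbs2 by 0.84, the surface marker Thy1 by 0.80 and Thbs1 by 0.64. Ly6a belongs to a family of similar genes, which may share reads. Cxcl12, a chemokine of stromal cells, fell from 11658, 18899 and 11587 to 4430, 5323 and 4941 (-1.52, SE 0.185, adjusted p = 5.9e-06). The proteoglycan gene Lum fell by 1.80, the fibrillin gene Fbn1 by 1.39, the protease inhibitor gene Timp3 by 1.35, Pdgfrb by 0.86, Col3a1 by 0.82, Col5a2 by 0.79, Loxl2 by 1.52 and Vim by 0.57. Fbln2, a matrix protein, rose by 0.73 (SE 0.133, adjusted p = 0.001), and Fstl1, a secreted glycoprotein, fell by 0.96, both among the most abundant genes called. Col5a2, Loxl2, Vim, Thbs1 and Fstl1 lost their calls in some fit with 1 library left out.

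Of 27 genes of insulin and growth factor signalling, 6 were lower and 2 higher. Igf1 went from 1728, 1762 and 1772 normalized reads to 503, 497 and 406, a log2 fold change of -1.90 (SE 0.203, adjusted p = 9.3e-07), with little spread within either group. Vegfa, the endothelial growth factor, fell by 1.22 (SE 0.169, adjusted p = 3.5e-05), the glucose transporter gene Slc2a1 by 0.82, the receptor genes Fgfr1 by 0.81 and Egfr by 0.75, and Igfbp3 by 0.93, whose call was lost in some fit with 1 library left out. Foxo1 and Hbegf (0.97, SE 0.224, adjusted p = 0.0088) rose. Of 16 genes tested in the list of ERK feedback, Spry1 fell by 2.13 (SE 0.399, adjusted p = 0.0015), Dusp14 by 1.45 and Dusp1 by 0.61. The phosphatase genes Dusp10 and Dusp4 rose by 1.39 and 1.30.

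Of 25 genes of TGF-β and BMP signalling, 4 were higher and 4 lower. Grem1, a secreted BMP antagonist, went from 221, 157 and 133 normalized reads to 969, 1364 and 628 (log2 fold change 2.54, SE 0.316, adjusted p = 8.7e-06), and the activin gene Inhba rose by 1.55, Ltbp1, which holds latent TGF-β in the matrix, by 0.92 and Skil, an inhibitor of SMADs, by 0.80. The BMP targets Id1, Id2 and Id3 fell, as did the receptor gene Tgfbr2, by 0.66. Inhba, Id2, Skil and Tgfbr2 lost their calls in some fit with 1 library left out.

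Of 23 chemokine and NF-κB target genes tested, 7 were higher and 2 lower, with a median of 0.55. Beside Saa3 and Lcn2, the IL-33 receptor gene Il1rl1 rose by 1.91, the neutrophil chemokine genes Cxcl5 by 1.32 and Cxcl1 by 1.11, Nfkbiz, a nuclear partner of NF-κB, by 1.27 and complement C3 by 0.91, all with adjusted p of 0.0059 or less. The adhesion molecule gene Vcam1 and the chemokine gene Cx3cl1 fell by 0.94 and 1.13. Of 41 interferon-stimulated genes tested, 5 were higher and 3 lower, and the median was -0.04. Ly6e went from 1911, 972 and 2125 normalized reads to 8794, 4699 and 9394 (log2 fold change 2.19, SE 0.388, adjusted p = 0.00096), and the immunoproteasome genes Psmb8 and Psmb9 and the transporter gene Tap1 rose by 1.63, 1.15 and 0.72, while Ifi44, Ccl5 and Ifi27l2a fell by 1.75, 2.20 and 0.87. Rsad2 was called higher on few reads, at 2, 1 and 2 in DMSO and 4, 10 and 12 in ML-792. Psmb9, Tap1, Ifi27l2a and Rsad2 lost their calls in some fit with 1 library left out.

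The cell cycle lists are given beside the 3.77% higher and 4.35% lower of all genes tested. Of 38 genes of DNA replication, Pola1 and Rfc3 were called higher (1.10, adjusted p = 0.054, and 0.73, adjusted p = 0.093), none was lower, and the median was 0.30. Of 36 genes of mitosis, only Kif20a was called (-0.63, adjusted p = 0.091), and the median was -0.03. All 3 of these calls were lost in some fit with 1 library left out. Ccnd1, which encodes the G1 cyclin D1, was the 1 gene called of 19 of its list, from 8275, 9257 and 7440 normalized reads to 15967, 14645 and 16344 (log2 fold change 0.91, SE 0.124, adjusted p = 3.1e-05). Mcm7, part of the replicative helicase, stood at 1818, 1386 and 2189 against 3174, 1734 and 3866, with both B libraries lowest, and was called higher with the replicate block (0.66, adjusted p = 5e-04) but not without it. The same held for the CDK inhibitor gene Cdkn1a, at 8095, 4880 and 7818 against 13630, 7971 and 14555 (0.79, adjusted p = 2.9e-05 with the block). Of 25 p53 targets tested, Eda2r, Trp53inp1 and Polk were higher, by 1.11, 0.86 and 0.67, and Btg2 was lower. Of the stress lists, 2 of 27 ATF4 genes were higher (Aldh1l2 by 0.97 and Psat1 by 0.49) and 2 lower (Cth and Pck2), 1 of 25 NRF2 genes was higher (Osgin1) and 2 were lower (Nqo1 by 0.99 and Srxn1 by 0.85), and 1 of 18 heat shock genes was higher (Hsph1, by 1.11). Of 25 SRF and YAP targets 3 were lower (Cnn2, Amotl2 and Vcl, by 0.66 to 0.50) and none was higher, of 8 RGS genes Rgs2 and Rgs16 were lower, of 26 MYC and ribosome biogenesis genes Rrp1b was higher, and of 18 clock genes Hlf and Npas2 were higher and Tef was lower, with Npas2 at 0 reads in each DMSO library and at 2, 1 and 3 in ML-792. No endothelial, epithelial or muscle marker of the lists was called. Of the genes named in the preceding sentences on stress and other lists, Polk, Psat1, Pck2, Cnn2, Amotl2, Vcl, Rgs16, Rrp1b and Npas2 lost their calls in some fit with 1 library left out. The long noncoding RNA Neat1, the scaffold of paraspeckles, rose by 1.53 (SE 0.194, adjusted p = 1.1e-05), and Sh3pxd2a fell by 0.67.

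Labelled reads made up 1.27% ± 0.0798 of the reads in DMSO and 1.06% ± 0.0482 in ML-792 (SD, n = 3 in each group). The 3 ML-792 libraries were all below the 3 DMSO libraries, a difference of -0.215 percentage points with an exact permutation p of 0.1, two-sided, the smallest that 3 libraries against 3 allow. Single genes could lie far from these shares. Vcl had 28.0% to 34.5% of its reads labelled in the day 1 libraries, and Prc1 had 0.0989% to 23.6% in those of DMSO. How much of the labelled reads is background was not tested. Of 6208 genes tested in labelled reads, 10 were higher (0.161%) and 59 lower (0.95%), where the 3 libraries of each group did not overlap for 3.41% of all genes upward and 12.5% downward. The median log2 fold change of all genes was -0.31, and 85.5% of the genes called were lower. These counts take the library size from the total reads. Scaled by the labelled reads instead, the median was 0.00 and 29 genes were called higher and 29 lower, 50% each way, so the surplus of falls depends on this scaling, and all 10 genes called higher and 29 of the 59 called lower were called under both. The replicate block gave 28 higher and 153 lower, and DESeq2 gave 25 and 137. Single libraries moved the counts as well, to 17 higher without DMSO replicate A and to 31, 35 and 37 lower without ML-792 replicate A, ML-792 replicate B and DMSO replicate B.

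Of the 59 genes lower in labelled reads, 37 were also called lower in total reads and 57 had a total fold change below 0. Cav1, which encodes the caveolar coat protein caveolin-1, had the smallest adjusted p. It stood at 106, 174 and 165 normalized labelled reads in DMSO and at 28.9, 22.1 and 24.2 in ML-792, a log2 fold change of -2.56 (SE 0.329, adjusted p = 8.5e-07), and in total reads at 6539, 9334 and 6856 against 1533, 1848 and 1824 (-2.13, SE 0.179, adjusted p = 4.0e-08). Foxc1, a forkhead transcription factor of mesenchymal cells, went from 78.2, 98.4 and 76.7 to 15.0, 14.0 and 10.3 labelled reads (-2.69, SE 0.439, adjusted p = 8.4e-05) and fell by 1.50 in total reads (SE 0.142, adjusted p = 1.9e-07). In both genes the groups were far apart in either readout. Slc6a6, the taurine transporter, went from 227, 418 and 279 labelled reads to 66.3, 75.6 and 68.1 (-2.14, SE 0.317, adjusted p = 2.3e-05). Rgs2 went from 832, 687 and 844 to 243, 183 and 242 (-1.82, SE 0.288, adjusted p = 6.4e-05). Slc6a6 also fell in total reads, by 1.62 (SE 0.167, adjusted p = 6.5e-07).

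Several early regulators fell in labelled reads too. Cebpd went from 190, 261 and 161 normalized labelled reads to 78.1, 74.4 and 66.2 (log2 fold change -1.48, SE 0.303, adjusted p = 0.0036). Id3 fell by 1.37, Id1 by 1.22, Zfp36l1 by 1.85, Egr3 by 2.09, Cxcl12 by 1.81 and Vegfa by 2.19, all with adjusted p of 0.0055 or less. The calls of Id1 and Cxcl12 were lost without DMSO replicate B, whose labelled reads were the highest of its group in both genes. Socs1, a feedback inhibitor of cytokine signalling, fell by 2.44 (adjusted p = 0.016), Timp3 by 2.74, Pnpla2 by 1.85, Fosl2 by 1.32 and Dusp1 by 1.13, each lost in some fit with 1 library left out. Pip held 25.7, 44.6 and 36.3 labelled reads in DMSO and 0, 3.49 and 0.93 in ML-792 (adjusted p = 0.018). Plekhg5, a guanine nucleotide exchange factor, held 12.9, 13.7 and 19.8 against 0, 1.16 and 1.86 (adjusted p = 0.048), and Taf1, a subunit of TFIID, 14.7, 12.8 and 17.3 against 3.21, 1.16 and 0.93 (adjusted p = 0.054). In total reads Pip fell, while Plekhg5 and Taf1 were not called, at -0.29 and 0.05. These 3 calls in labelled reads and that of Fbxl17 were lost in some fit with 1 library left out. Pparg was not called in labelled reads either, at 69.9, 84.7 and 51.1 against 23.5, 14.0 and 39.2 (adjusted p = 0.32).

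Of the 10 genes higher in labelled reads, 9 were also called higher in total reads, Prpf39 being the other. Tnfrsf23 stood at 0.92, 2.73 and 0.82 normalized labelled reads in DMSO and at 42.8, 41.9 and 67.1 in ML-792 (adjusted p = 6.4e-05), and Tnfrsf22 at 2.76, 0 and 0 against 24.6, 32.6 and 30.8 (adjusted p = 0.005). G0s2 went from 0.92, 0.91 and 2.47 to 19.3, 3.49 and 18.6 (adjusted p = 0.00097). These DMSO values are 0 to 3 reads a library, so no fold is given. Mt2 went from 211, 206 and 258 to 633, 477 and 680 labelled reads (log2 fold change 1.41, SE 0.27, adjusted p = 0.0014) and Plin2 from 6.44, 10.0 and 9.90 to 26.7, 31.4 and 46.6 (1.98, SE 0.426, adjusted p = 0.0064). Mt1, at 514, 490 and 605 against 858, 767 and 1082, was called with the replicate block (0.74, adjusted p = 0.033) but not without it (adjusted p = 0.17), and Klf10 likewise (0.98, adjusted p = 0.038 with the block and 0.17 without). Ezr, a linker of membrane and actin, rose by 2.01 and the phosphatase subunit Ppp2r3a by 2.15, with Nfkbiz and Fos as the remaining 2, at 1.13 and 1.22. The Nfkbiz entry had a labelled share over 30% in the reads of a replicate letter summed over the 4 days, with 17.1% to 27.5% of its reads labelled in the 6 libraries of day 1, and without such entries 8 genes were called higher. Ezr, Ppp2r3a, Nfkbiz, Fos and Prpf39 lost their calls in some fit with 1 library left out or with another filter.

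**Figure D4:**
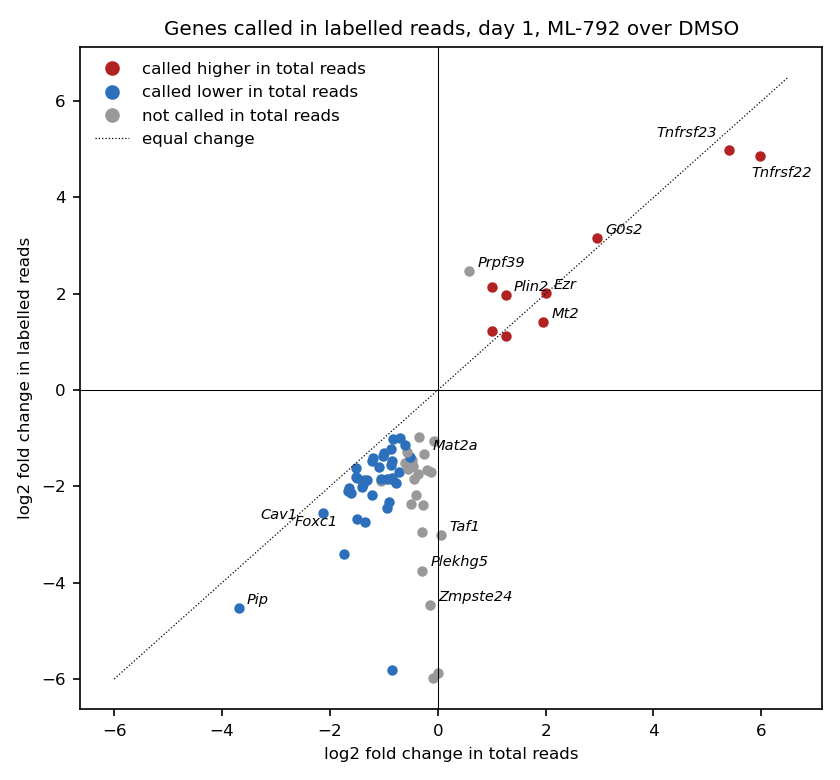
Fitted log2 fold change, ML-792 over DMSO at day 1, in total reads (horizontal) and in labelled reads (vertical) for the 69 genes called in labelled reads, coloured by their call in total reads; the dotted line marks equal change. Of the 59 genes called lower in labelled reads 57 lie left of 0, and Zmpste24, Plekhg5 and Taf1 lie low near a total change of 0.

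The share of a gene's reads that were labelled was tested on its own, which sets labelled reads against the amount present. None of the 6208 genes had a higher share (0%) and 3 had a lower one (0.0483%), with 523 at an unadjusted p under 0.05. The median log2 change of the share over all genes was -0.275, so the falls below include this general drop. Scaled by the labelled reads the median was 0.018, and there Pim3 kept its call and Mat2a lost it. Pim3, a serine/threonine kinase gene, had 4.83%, 4.94% and 5.37% of its reads labelled in DMSO and 1.62%, 1.51% and 2.42% in ML-792 (log2 change of the share -1.49, SE 0.249, adjusted p = 0.0039). Mat2a, which makes S-adenosylmethionine, had 5.13%, 4.43% and 4.64% against 2.14%, 2.02% and 2.54% (-1.12, SE 0.217, adjusted p = 0.015). Zmpste24, the protease that matures lamin A, had 1.64%, 0.913% and 2.34% against 0.0936%, 0% and 0.0760% (adjusted p = 0.0071), the ML-792 values resting on 2 labelled reads in all. None of the 3 was called in total reads, where Pim3 changed by -0.45 (adjusted p = 0.39, though called lower with the replicate block at an adjusted p that rounds to 0.1), Mat2a by -0.25 (adjusted p = 0.64) and Zmpste24 by -0.14 (adjusted p = 0.93). Without ML-792 replicate A no gene was called, and none was when only the 6 libraries of day 1 were fitted. Of the 6 fits with 1 library left out, Mat2a lost its call in 4, Zmpste24 in 3 and Pim3 in 1.

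The effect at day 1 was set beside that of the other days. At day -2 no gene was called in total reads (0%, with 184 at an unadjusted p under 0.05). At day 3, 1120 genes were higher (8.44%) and 931 lower (7.02%), and at day 7, 812 were higher (6.12%) and 751 lower (5.66%). Of the 500 genes higher at day 1, 289 (57.8%) were also called higher at day 3, 25.8% of those called there, and 151 (30.2%) at day 7, 18.6% of those called there. Of the 577 lower, 222 (38.5%) were also lower at day 3, 23.8% of those called there, and 88 (15.3%) at day 7, 11.7%. Calls in the opposite direction were 14 and 34 genes at day 3 and 39 and 50 at day 7. These comparisons use separate libraries on both sides. The effect at day 1 differed from that at day -2 by its own test for 315 genes (2.38%), from that at day 3 for 633 (4.77%) and from that at day 7 for 1097 (8.27%). With the replicate block these counts were 886, 1413 and 2311. In labelled reads the difference was called for 3 (0.0483%), 2 (0.0322%) and 15 genes (0.242%).

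Tnfrsf22 and Tnfrsf23 were not called at day -2, rose by 6.15 and 6.25 on the log2 scale at day 3 and by 3.87 and 3.53 at day 7, and their effects at day 1 and day 3 did not pass the test of a difference (adjusted p = 0.98 and 0.46). Foxc1 fell by 1.50 at day 1 and changed by -0.19 at day 3 and -0.01 at day 7, and the difference passed the test against each of the other days (adjusted p of 0.00031 or less). Slc6a6 and Igf1 also differed from each of the other days (adjusted p of 0.0039 or less), with -1.62 and -1.90 at day 1, 0.28 and -0.46 at day 3 and 0.20 and -0.07 at day 7. These 3 genes were called at day 1 and at no other day. Alpl rose by 3.18 at day 1 and changed by -0.11 at day 3 and -0.96 at day 7, which differed from day 1 (adjusted p = 0.002 and 0.00016), while the difference from day -2 did not pass (adjusted p = 0.57). Eln rose by 3.83 at day 1 and by 1.17 at day 7 (adjusted p = 0.099), and its change of 1.10 at day 3 was not called. G0s2 rose by 2.95 at day 1, from a DMSO mean of 49.8 normalized reads, and changed by 0.31 at day 3, when the DMSO mean was 8459.6, and the difference passed the test (adjusted p = 0.0002).

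Mt2 changed direction over the days: before induction its log2 fold change was -0.03, on day 1 it was 1.95, on day 3 -0.11 and by day 7 it had reached -2.41. For Mt1 the same 4 values were 0.14, 1.25, -0.43 and -1.95. The differences between day 1 and day 7 were 4.37 and 3.19 (adjusted p = 3.7e-11 and 5.8e-07). Scd1 did so too, at 1.49, -0.45 and -1.67 for days 1, 3 and 7, and Dgat2 at 1.57, -0.30 and -0.61, where the day 1 effect of both differed from that of day 3 and day 7 (adjusted p of 0.00052 or less). Plin2 stood at 1.26, 1.58 and 0.49, called at each of these days, and Fabp4 at 1.06, 0.66 and 0.79, not called at day 3. The rise of Ccnd1 was larger at days 3 and 7 than at day 1, at 0.91, 1.74 and 1.86 (adjusted p of the difference = 0.0071 and 0.0016), and Rgs2 fell at all 3 days, by 1.49, 2.46 and 1.16.

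**Figure D5:**
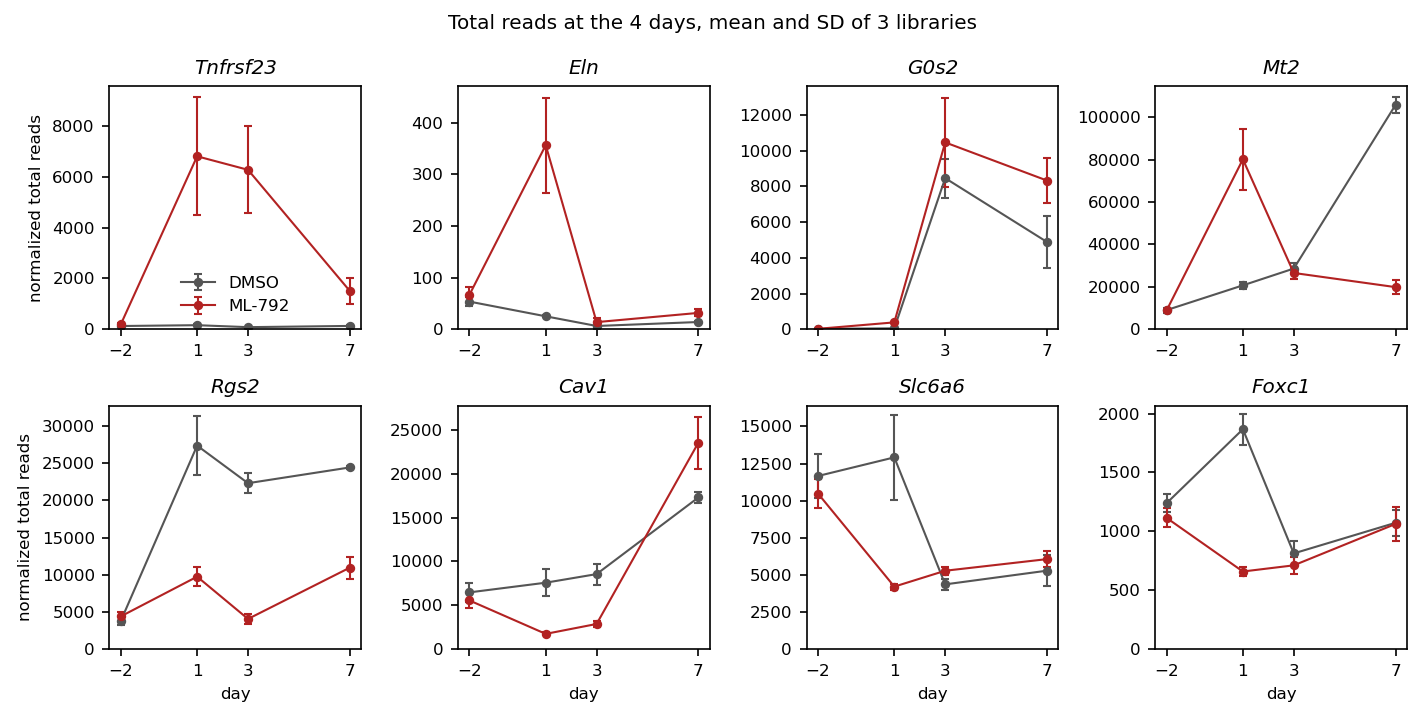
Normalized total reads, mean with bars of 1 SD of 3 libraries, at days -2, 1, 3 and 7 in DMSO and ML-792 for 8 genes, each on its own axis from 0. Tnfrsf23 is high in ML-792 from day 1 to day 7, the groups of Foxc1 and Slc6a6 part at day 1, and Mt2 is above DMSO at day 1 and below it at day 7.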

How the data were processed

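RNA of 3T3-L1 cells was sequenced from the 3′ end (QuantSeq) after labelling with 4-thiouridine and alkylation (SLAMseq), with 3 biological replicates a condition per the study's methods. Per the submitters' processing notes, reads were handled with bcl2fastq 2.17.1.14 and SlamDunk 0.4.3. The values deposited by the authors are raw counts of total reads and of reads with T to C conversions for each of 91830 RefSeq 3′UTR entries of the mm10 build, which carry 26995 gene symbols, not normalized. Of each, 6 columns could not be mapped to a sample and were not used.

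Counts were tested with edgeR 4.0.16 in R 4.3.3 by the quasi-likelihood test over all 24 libraries as 8 groups, with TMM factors, after filterByExpr (minimum count 10, minimum total 15). Labelled counts took the library sizes and factors of the total counts. The labelled share of a gene was tested with labelled and unlabelled counts side by side and a term for each library. Benjamini-Hochberg adjustment ran over the 26338 entries tested in total reads and the 10170 tested in labelled reads, and each gene was then represented by the entry that had most total reads on average. Fold changes are those of the edgeR fit with its small prior count, so folds of genes with few reads are little shrunk. The members and gene lists were chosen with earlier results of these data known.

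Named genes followed a rule: among called genes whose groups did not overlap, the 12 highest and 12 lowest fold changes in total reads at a mean of at least 100 normalized reads, the 8 and 8 of labelled reads at 10 or more, the 5 and 5 of the labelled share, up to 5 called members a direction and 4 not called of each list, examples shown in the study, 3 and 3 genes for each test between days, and the 5 most abundant called genes a direction. Predicted genes were counted and not named, save Gm6093, which was named after its values were seen. Entries with a labelled share over 30% in any day 1 library were kept out of the labelled rule. Of the genes that come from outside it, C3, Plin1, Plin4, Sgk1, Angptl4, Egfr, Pdgfrb, Thbs1 and Col5a2 are the remaining called members of their lists.

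Replicate letters were checked as pairs by correlating deviations from the group mean between libraries. Same-letter libraries gave 0.169, 0.304 and 0.155 for A, B and C in total reads, and 0.054, 0.102 and 0.039 in labelled reads. Libraries of different letters gave -0.256 to 0.159 in total reads. The highest of these, DMSO C with ML-792 A, lay above the C pair and just below the A pair. A pairing by letter is therefore not clear for C, and for A it rests on a narrow margin. The main fit holds no letter term, and the replicate block was run as an alternative. Counts simulated from the real means were tested first. For total reads (13263 genes) 56% of the genes changed 2-fold and 98% of those changed 4-fold were recovered, for labelled reads (6208 genes) 15% and 77%, and for the labelled share (6208 genes) 53% and 93%. False calls were 20 of 174, 9 of 101 and 8 of 154 calls. Total and labelled counts were drawn with a fixed spread not estimated from the data. The labelled share was drawn with no spread between replicates beyond sampling, so its recovery cannot be carried over to the real libraries. The alternatives were other filters, DESeq2 1.42.0, 1 entry a gene, the replicate block, only the 6 libraries of day 1, no TMM factors, labelled reads as library size, stricter thresholds and each library left out in turn. Some members of the lists are counted but not reported here by name. Figures were drawn with matplotlib 3.10.9.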

Additional observations from a re-analysis of the deposited data

Results flagged for a closer look

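The results below are named because the effect of ML-792 at day 1 differed from that at another day by a test of the difference itself (edgeR, adjusted p under 0.1). Values are the log2 fold change at day 1 minus that at the other day.

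Against day -2 in total reads, the difference was 5.68 for Tnfrsf22 (adjusted p = 4.5e-06), 4.81 for Tnfrsf23 (adjusted p = 1.2e-06), -4.05 for Kera (adjusted p = 0.047), -3.34 for Ramp2 (adjusted p = 0.00052) and -3.12 for Ear2 (adjusted p = 0.0024). For Rasd1, a small GTPase gene induced by dexamethasone, it was 6.01 (adjusted p = 0.053), where the day -2 means were 1.47 normalized reads in DMSO and 0 in ML-792.

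Against day 3, Thrsp, a lipogenic gene, differed by 4.38 (adjusted p = 0.0011), Retnla, a resistin-like secreted protein, by 3.68 (adjusted p = 4.6e-06) and Alpl by 3.29 (adjusted p = 0.002). The changes at day 1 and day 3 were 0.79 and -3.59 for Thrsp and 0.58 and -3.10 for Retnla, so these differences lay mainly at day 3. For Alpl they were 3.18 and -0.11. The thioesterase gene Acot1 differed by -4.60 (adjusted p = 1.7e-05) and may share reads with its paralog Acot2. Acot1 changed by 0.85 at day 1 and by 5.45 at day 3. For the leptin gene Lep (-5.81, adjusted p = 0.0011) and the aquaglyceroporin gene Aqp7 (-4.49, adjusted p = 0.087) the day 1 libraries held few reads, and the difference rests on day 3.

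Against day 7, Mreg differed by 6.38 (adjusted p = 0.001), with a change of 1.08 at day 1 and of -5.31 at day 7. At day 1 Mreg held 5, 25 and 11 total reads in DMSO against 28, 13 and 34 in ML-792. Ghrh differed by 7.43 (adjusted p = 3e-04) and Slc22a20 by 7.26 (adjusted p = 0.003), both on few reads at day 1, at 1, 1 and 2 in DMSO against 1, 9 and 2 in ML-792 for Ghrh and at 7, 0 and 0 against 4, 6 and 8 for Slc22a20. Rgs16, a regulator of G protein signalling, differed by -4.83 (adjusted p = 3.5e-06). Pde11a (-5.10, adjusted p = 0.078) and Cyp2b10 (-4.81, adjusted p = 0.0077) also had few reads at day 1.

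In labelled reads, the difference from day -2 was -2.19 for Cav1 (adjusted p = 0.03), -1.83 for Rgs2 (adjusted p = 0.076) and 1.68 for Mt2 (adjusted p = 0.096). From day 3 it was -2.09 for Slc6a6 (adjusted p = 0.084) and 2.49 for Fos (adjusted p = 0.015). From day 7 it was -2.82 for Slc6a6 (adjusted p = 1e-04), -3.10 for the chemokine gene Ccl7 (adjusted p = 0.015), -4.87 for Osr1 (adjusted p = 0.073), 5.45 for Acot2 (adjusted p = 0.079), 5.38 for Usp16 (adjusted p = 0.059) and 3.82 for Ets2 (adjusted p = 7e-04). At day 7 the changes were 1.84 for Ccl7, 3.295 for Osr1, -3.40 for Usp16 and -2.92 for Ets2. At day 1 these genes changed less, by -1.26, -1.57, 1.98 and 0.895. Acot2 held 1, 0 and 0 labelled reads in DMSO at day 1 and 2, 0 and 13 in ML-792, mostly in 1 library.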

How the results depend on the processing

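With the replicate block, total reads gave 917 genes higher and 1228 lower at day 1, labelled reads 28 and 153, and the difference from day -2, 3 and 7 was called for 886, 1413 and 2311 genes in total reads and for 14, 26 and 35 in labelled reads. With only the 6 libraries of day 1 fitted, 346 genes were lower in total reads, 6 higher and 33 lower in labelled reads, and none in the labelled share. A change above 2 on the log2 scale left 127 higher and 50 lower in total reads, 6 and 22 in labelled reads and 1 lower in the labelled share. DESeq2 called 25 higher and 137 lower in labelled reads, labelled reads as library size gave 29 and 29, and an adjusted p under 0.05 gave 39 lower. With a filter of at least 10 reads the labelled difference was called for 6 genes against day 3 and 23 against day 7. Other filters, 1 entry a gene and no TMM factors kept the counts of total reads at 437 to 555 higher and 481 to 634 lower.

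With 1 library left out, total reads gave 377 to 452 genes higher and 355 to 481 lower, labelled reads 7 to 17 and 31 to 69 (17 higher without DMSO replicate A, and 31, 35 and 37 lower without ML-792 replicate A, ML-792 replicate B and DMSO replicate B), and the labelled share 0 to 1 and 0 to 4. The difference from day -2, 3 and 7 ranged over 236 to 294, 495 to 562 and 816 to 1028 genes in total reads and over 0 to 4, 0 to 4 and 9 to 21 in labelled reads. The difference in the labelled share of the library ranged from -0.249 to -0.171 percentage points. Of 153 named genes called in total reads, 105 kept their call in all 6 of these fits and 48 lost it in at least 1, and of 32 named in labelled reads 17 kept it and 15 lost it, with no change of direction among them. The least stable calls, lost in 5 of the 6 fits, were Setdb1, Angptl4, Loxl2, Rfc3, Pck2, Amotl2, Slc39a14, Npas2 and Rsad2 in total reads. In labelled reads they were Fos, Dusp1 and Timp3. Uba2, which was not called, ranged from -0.23 to 0.11, with the sign changed without DMSO replicate B. The call of Mat2a in the labelled share was also lost with either other filter and with labelled reads as library size. The causes were not tested. In labelled reads the simulated 2-fold changes were mostly missed at this depth, so a gene not called there may have changed.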
